A study of Danio rerio with 8 samples.

Results

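Myo-inositol and sorbitol are handled by a small group of genes, and 5 of them were described here across whole zebrafish (Danio rerio) embryos kept in high salt, high glucose or control medium. They were the myo-inositol carrier gene slc5a3b, the myo-inositol oxygenase gene miox, the inositol monophosphatase gene impa1, the aldose reductase gene akr1b1 and the sorbitol dehydrogenase gene sord. They were taken by symbol from a table of 31953 genes; 5 of 5 were found, and 5 of 5 passed the filter on low counts. They were chosen by earlier results of these same libraries, in which the counts of slc5a3b and miox differed between salt and control, so all values of the 5 genes that involve the salt libraries are given as a description.

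Myo-inositol and sorbitol are organic osmolytes, small uncharged solutes that cells accumulate in a concentrated medium without raising their salt content. The SLC5A3 protein carries myo-inositol into the cell together with sodium, and in mammalian kidney cells its gene is a known target of the tonicity-regulated factor NFAT5. MIOX, known in mammals from the proximal tubule of the kidney, opens the myo-inositol ring to give glucuronate and so starts its breakdown. IMPA1 frees myo-inositol from inositol monophosphate. Aldose reductase turns glucose into sorbitol and sorbitol dehydrogenase turns sorbitol into fructose, and these steps together are the polyol pathway, known for its activity when glucose is high.

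The measurement was bulk RNA sequencing, deposited as raw read counts per gene. The groups were high salt (2 libraries), high glucose (3 libraries) and control (3 libraries), each of whole embryos treated for 72 h. Strain, the concentrations of salt and glucose, and the number of embryos per library are not stated in the sources used here, and nothing said that libraries of a group came from separate clutches, so p-values cover the spread among these libraries, which may be technical. Libraries are named by group and by a suffix in the column names (1m, 2f or 2m; salt has 1m and 2m) whose meaning was not stated. Libraries of 1 suffix in different groups tended to deviate from their group means together (correlation 0.16 to 0.52). The single 2f pair was the weakest (0.16), and pairs of different suffixes reached 0.22.

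Totals ran from 14.65 to 17.32 M counts, so that 3 counts corresponded to 0.171 to 0.226 CPM (read counts scaled to a common TMM-adjusted total, per M counts). Control 1m stood apart from the other controls (chi-square per degree of freedom of the counts 84.0 and 88.4, against 19.3 between control 2f and 2m), and the salt libraries differed from each other by 49.4 on that scale. With edgeR (quasi-likelihood test, p adjusted by Benjamini-Hochberg over 20562 genes), 605 genes were higher and 496 lower in salt than in control (55.0% higher among the called genes, and 44.2% higher with scaling by library totals alone). Markers of pronephros, liver, lens, ionocytes, epidermis and gut were detected, with 0 of the listed genes found in the table at 0 in every library. Epidermal markers summed to 19880 and 23010 CPM in salt, against 25340 to 25810 CPM in glucose and 25390 to 29280 CPM in control. Lens markers summed to 155.5 and 542.3 CPM in salt, against 309.5 to 1552 CPM in glucose and 56.6 to 470.2 CPM in control, and 13 of 13 tested lens genes had a log2 fold change above 0 in glucose over control (median 1.47, 0 called). With the suffix as a block in the edgeR model, 3 of the 13 were called and 12 had an unadjusted p below 0.05. Over all 20562 tested genes these counts were 36 and 2504. The part of any of these tissue markers in the results was not tested.

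The myo-inositol carrier gene slc5a3b was the member with the highest level in salt relative to both other groups. It lies on chromosome 9, 33323937 to 33326458, minus strand (coordinates of the deposited table; the submitters' processing notes name GRCz11), and its listed length of 2522 bases equals its span of 2522 bases, so that the annotation holds no intron. It was counted 944 times in salt 1m and 4166 times in salt 2m, against 74, 91 and 139 times in glucose 1m, 2f and 2m and 190, 92 and 102 times in control 1m, 2f and 2m. Scaled, these were 64.1 and 314.4 CPM in salt, against 4.22, 5.70 and 8.71 CPM in glucose and 12.4, 5.61 and 5.93 CPM in control. Both salt libraries lay above every other library, the 2 of them differed 4.9-fold from each other, and glucose and control overlapped.

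The mean of slc5a3b was 189.2 ± 177 CPM in salt (SD, n = 2), 6.21 ± 2.29 CPM in glucose and 7.97 ± 3.8 CPM in control (SD, n = 3 each). The mean in salt was 23.8 times that in control and 30.5 times that in glucose. The fitted log2 fold change was 4.57 ± 0.63 over control (SE; 95% interval 3.17 to 5.98) and 4.93 ± 0.64 over glucose. Within suffix 1m the ratio of salt to control was 5.19, and within suffix 2m it was 53.0. Without salt 2m, the library with the larger value, the fitted log2 difference from control was 3.02.

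**Figure D1:**
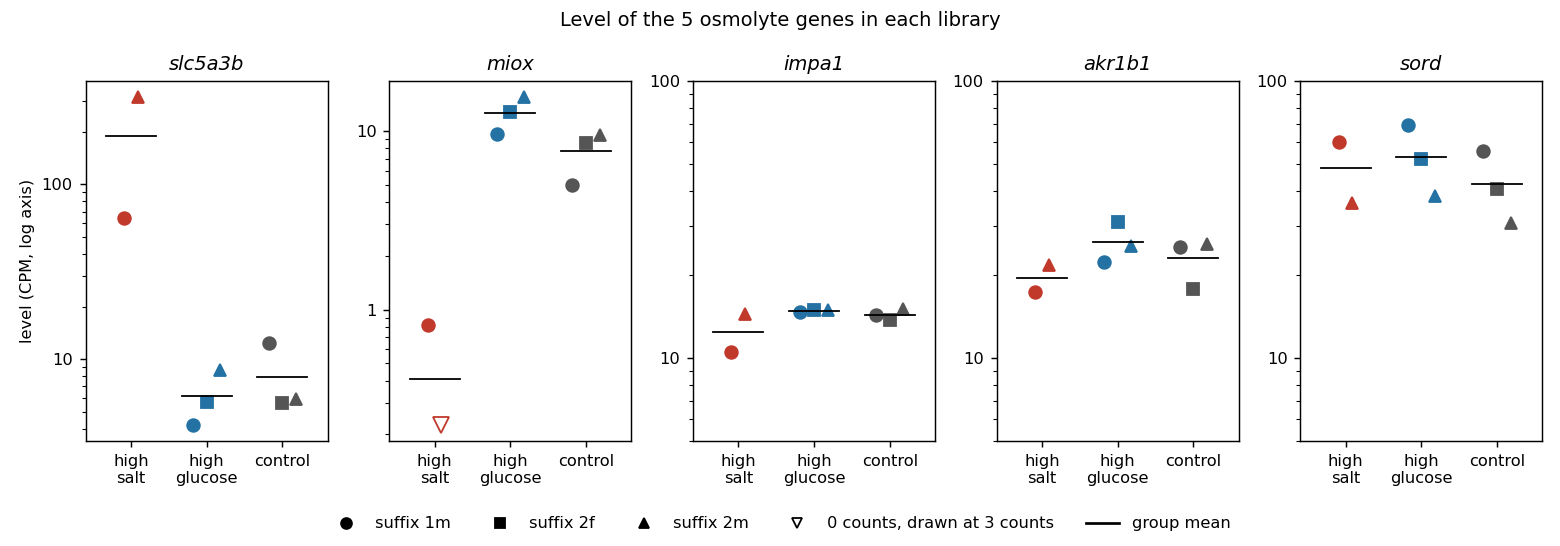
Level of each of the 5 genes in CPM on a log axis, 1 point per library, with the group mean as a line; an open triangle marks 0 counts, drawn at the level of 3 counts. The salt libraries lie above all others for slc5a3b (64.1 and 314.4 CPM) and below all others for miox (0.815 and 0 CPM), while impa1, akr1b1 and sord stay within 10.5 to 69.1 CPM throughout.

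The breakdown gene miox showed the opposite placement of the salt libraries. It lies on chromosome 18, 6773233 to 6783325, minus strand. It was counted 12 times in salt 1m and 0 times in salt 2m, against 170, 204 and 247 times in glucose 1m, 2f and 2m and 77, 140 and 164 times in control 1m, 2f and 2m. In CPM this was 0.815 and 0 in salt, against 9.70, 12.8 and 15.5 in glucose and 5.01, 8.54 and 9.54 in control. Both salt libraries lay below every other library. The count of 0 in salt 2m allows a level of up to 0.226 CPM (3 counts; counting error only).

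The mean of miox was 0.408 ± 0.576 CPM in salt (SD, n = 2), 12.7 ± 2.89 CPM in glucose and 7.70 ± 2.38 CPM in control (SD, n = 3 each), so that salt stood at 0.053 of control and 0.0322 of glucose. The fitted log2 fold change was -4.17 ± 0.79 over control (SE; 95% interval -5.94 to -2.40) and -4.88 ± 0.80 over glucose. It rests on few counts, and the fit without salt 1m, which leaves a group at 0 counts, is no measure of size. Without salt 2m the log2 difference from control was -3.22. Within suffix 1m the ratio of salt to control was 0.163.

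By edgeR's quasi-likelihood test 1 of the 5 members was called higher (slc5a3b) and 1 lower (miox) in salt than in control, where 2.94% of all tested genes were called higher and 2.41% lower (5.35% in either direction). Over glucose the same 2 members were called, against 4.95% of all tested genes (3.05% higher and 1.9% lower). These 2 comparisons share the salt libraries, and the members were chosen with the first of them known, so nothing is read from these counts. The call of miox over control was lost with limma voom and without salt 2m, glucose 2f, glucose 2m, control 2f or control 2m (adjusted p = 0.051 to 0.088 without these libraries) and that of slc5a3b without salt 2m (adjusted p = 0.057). Over glucose the call of slc5a3b was lost without glucose 2f (adjusted p = 0.055) and that of miox without glucose 2f or glucose 2m (adjusted p up to 0.078). The 2 groups did not overlap for slc5a3b and miox, as was so for 39.4% of all tested genes in salt against control (18.8% higher and 20.6% lower).

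In whole embryos, fewer cells of a type and less RNA per cell cannot be told apart, so markers of the pronephros, the embryonic kidney, are given beside miox. Their summed level was 473.8 to 551.1 CPM in salt, against 378.8 to 476.9 CPM in glucose and 392.1 to 429.1 CPM in control. Of 23 tested pronephric genes 1 was higher and 0 lower in salt than in control, and the median log2 fold change was 0.19, beside -0.04 over all tested genes. The 1 gene was the cation channel gene trpm7 (1.09 ± 0.22, adjusted p = 0.026), which is not restricted to the kidney. The endocytic receptor gene cubn of the proximal tubule stood at 11.2 and 13.9 CPM in salt, against 7.59, 5.70 and 5.33 CPM in glucose and 5.20, 8.60 and 5.0 CPM in control (log2 1.0 ± 0.32 over control, adjusted p = 0.095). The kidney cadherin gene cdh17 was at 125.9 and 115.9 CPM in salt, against 84.5 to 137.1 CPM in glucose and 97.0 to 141.8 CPM in control. Of the 23 genes, cubn and trpm7 were the 2 at an unadjusted p below 0.05 (edgeR). Other listed carrier and receptor genes, not called, differed from control by 0.22 ± 0.38 (lrp2a), 0.13 ± 0.89 (amn), 0.01 ± 0.61 (slc26a1) and 0.28 ± 0.30 (slc20a1a). Further such values were 0.65 ± 0.33 (slc4a4a), 0.52 ± 0.53 (slc22a6l), 1.22 ± 1.16 (slc7a13) and -0.45 ± 0.59 (slc5a2). The summed pronephric level, which includes trpm7, lay above that of all 3 controls in both salt libraries. In salt 2m (473.8 CPM) it lay below glucose 1m (476.9 CPM). What part kidney content has in the level of miox was not tested.

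The phosphatase gene impa1, on chromosome 2 from 27027279 to 27033274, plus strand, varied least. It stood at 10.5 and 14.4 CPM in salt, against 14.7, 14.9 and 14.9 CPM in glucose and 14.2, 13.7 and 15.0 CPM in control. Salt 1m alone was lower than the rest, and salt 2m lay among the controls. The log2 fold change of salt over control was -0.20 ± 0.23 (95% interval -0.71 to 0.30), and that of glucose over control was 0.05 ± 0.20 (-0.40 to 0.50).

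The aldose reductase gene akr1b1 lies on chromosome 4, 14901287 to 14907761, plus strand. Its level was 17.3 and 21.7 CPM in salt, against 22.2, 31.0 and 25.4 CPM in glucose and 25.1, 17.8 and 25.7 CPM in control. The salt libraries lay below the 3 glucose libraries, while salt and control overlapped, and so did glucose and control. Of the 5 members, 4 (slc5a3b, miox, impa1 and akr1b1) did not overlap between salt and glucose, and neither did 44.8% of all tested genes (21.2% higher and 23.6% lower in salt). The log2 fold change of akr1b1 was -0.23 ± 0.25 for salt over control (95% interval -0.79 to 0.33) and -0.43 ± 0.25 for salt over glucose (-0.98 to 0.13).

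A second gene of the aldo-keto reductase family, listed under a clone name that RefSeq gives as a synonym of akr1b1.2, lies 91 bases beyond akr1b1 on the opposite strand. It stood at 5.50 and 4.08 CPM in salt, against 9.47, 10.3 and 10.21 CPM in glucose and 39.1, 10.19 and 11.9 CPM in control. Salt lay below all other libraries and control 1m far above them. The log2 fold change of akr1b1.2 over control was -2.09 ± 0.56 in salt (adjusted p = 0.059, and 0.019 with the suffix as a block in the model) and -1.03 ± 0.46 in glucose (adjusted p = 0.76). Without control 1m these values were -1.2 in salt (adjusted p = 0.041) and -0.14 in glucose. In salt over control akr1b1.2 was called in 1 of 8 fits without 1 library, that without control 1m. Of 17 alternative fits 4 called it there, and it was named after its values were seen. Strand use in the counting is not stated, so reads from the point where the genes meet could not be assigned with certainty, and reads shared by the 2 similar copies are uncertain likewise.

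The sorbitol dehydrogenase gene sord lies on chromosome 7, 30652133 to 30654880, minus strand, and separated libraries by suffix more than by treatment. Its level was 60.5 and 36.3 CPM in salt 1m and 2m, against 69.1, 52.4 and 38.5 CPM in glucose 1m, 2f and 2m and 55.7, 40.9 and 30.8 CPM in control 1m, 2f and 2m. In each group 1m was highest and 2m lowest, an order shared by 5.29% of all tested genes. The 2m library stood at 0.600 of 1m in salt, 0.557 in glucose and 0.553 in control. Within a suffix, glucose was 1.24, 1.28 and 1.25 times control (1m, 2f and 2m), and salt was 1.09 and 1.18 times control (1m and 2m). A higher level in glucose in all 3 suffix pairs was seen for 21.3% of tested genes. Liver markers, from a tissue known in mammals for sorbitol dehydrogenase, did not follow this order. Their sum was 5793 and 7805 CPM in salt 1m and 2m, against 7221, 7660 and 7904 CPM in glucose 1m, 2f and 2m and 7474, 6467 and 7328 CPM in control 1m, 2f and 2m. Summed pronephric markers did follow it. They stood at 551.1 and 473.8 CPM in salt, 476.9, 383 and 378.8 CPM in glucose and 429.1, 427.8 and 392.1 CPM in control. Summed lens markers ran in the reverse order in each group. What part tissue content has in the order of sord was not tested.

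**Figure D2:**
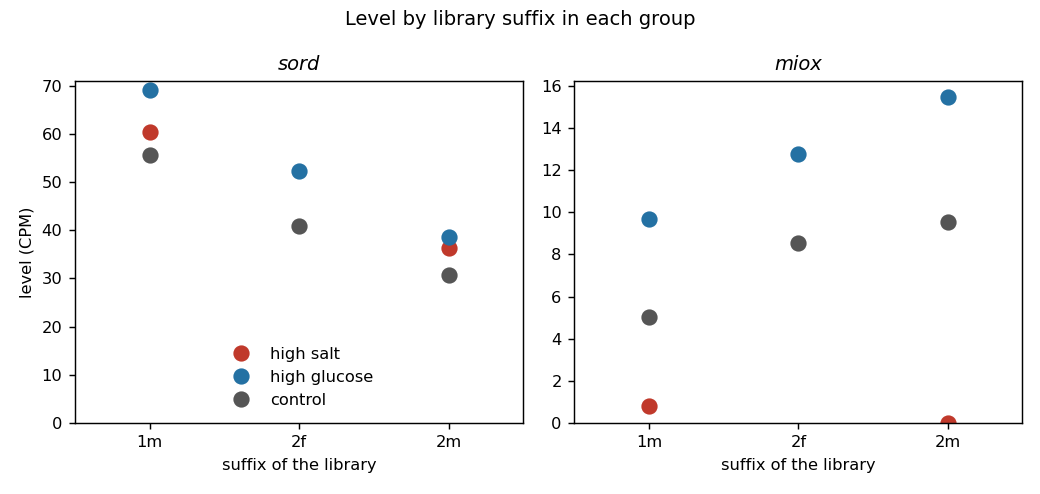
Level of sord and miox in CPM by library suffix, 1 point per library, coloured by group. For sord the 1m libraries lie highest (55.7 to 69.1 CPM) and the 2m libraries lowest (30.8 to 38.5 CPM) in every group, while for miox glucose lies above control at each suffix.

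Set against their listed lengths, the members kept nearly one order outside salt. Per kilobase, sord averaged 33.8 CPM in salt, 37.3 in glucose and 29.6 in control, and akr1b1 15.1, 20.3 and 17.7. In glucose and control sord was the highest and akr1b1 the second of the 5 members in all 6 libraries. The inositol carrier gene slc5a3b was the lowest in 5 of these 6, with miox lowest in control 1m. In salt slc5a3b averaged 75.0 CPM per kilobase, the highest in salt 2m and the second after sord in salt 1m, and miox was the lowest in both.

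The members were not chosen on the comparison of high glucose with control, and it was tested. It asks whether their levels differ when glucose is raised. Its 3 control libraries also served the salt comparison by which the members were chosen. The test is therefore not fully independent of that choice. None of the 5 members passed edgeR's quasi-likelihood test (0 with an unadjusted p below 0.05; 0 by DESeq2, 0 by limma voom and 0 with the suffix as a block). Over all tested genes 0% were called too, with 1227 of 20562 at an unadjusted p below 0.05, while DESeq2 called 93, limma voom 0 and the fit with the block 36. The breakdown gene miox was higher in glucose than in control in each suffix pair, by 1.94, 1.5 and 1.62 times (1m, 2f and 2m), and the 2 groups did not overlap. Its log2 fold change was 0.72 ± 0.52 (95% interval -0.45 to 1.89, adjusted p = 0.77). With only these 2 groups in the edgeR fit it was 0.71 (unadjusted p = 0.0419, adjusted p = 0.66). Lack of overlap in either direction was seen for 14.8% of tested genes (7.13% higher and 7.67% lower).

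For the carrier gene slc5a3b the log2 fold change of glucose over control was -0.36 ± 0.55 (-1.60 to 0.88, adjusted p = 0.87), and without control 1m its sign turned (0.10). For akr1b1 it was 0.20 ± 0.22 (-0.30 to 0.69, adjusted p = 0.84), with glucose 2f at 1.74 times control 2f and the other pairs at 0.885 (1m) and 0.987 (2m). For sord it was 0.33 ± 0.30 (-0.33 to 0.99, adjusted p = 0.80). With the suffix as a block in the edgeR model it was 0.33 for sord (unadjusted p = 0.0593, adjusted p = 0.43) and 0.20 for akr1b1 (0.384 and 0.74). In the fit without the block, the upper bounds for the polyol pathway genes lay at 0.69 (akr1b1) and 0.99 (sord) on the log2 scale. That fit ignores the pairing by suffix, and no bounds with the block are given.

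**Figure D3:**
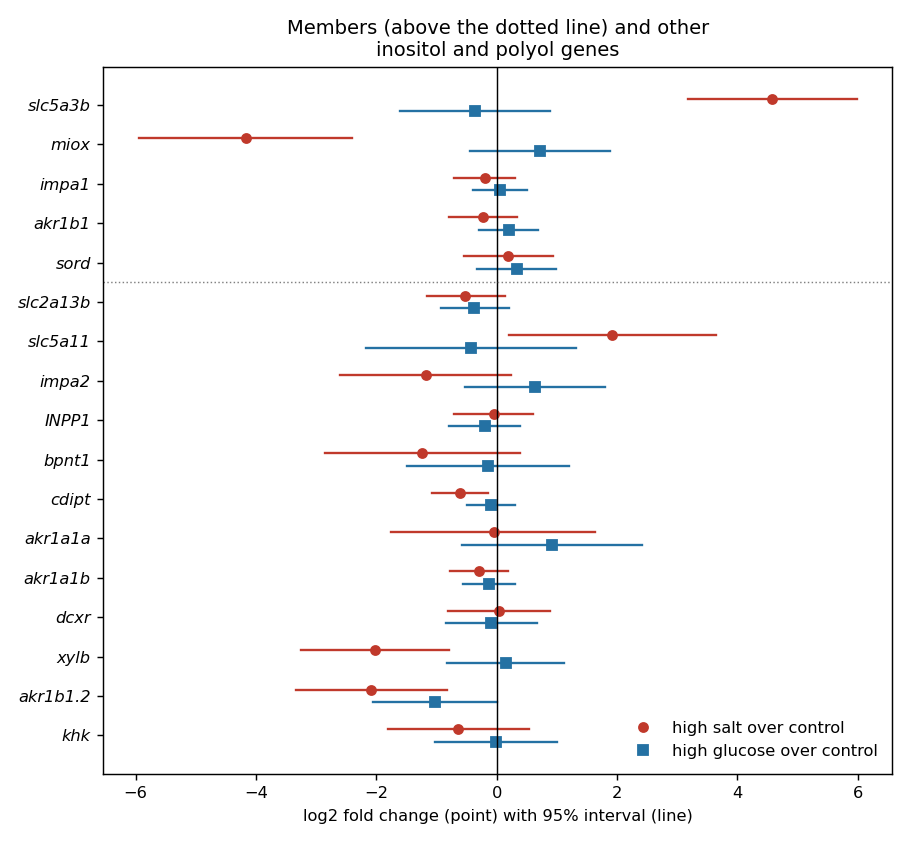
Log2 fold changes (points) with 95% intervals (lines) over control for the 5 members and 12 other inositol and polyol genes, high salt as circles and high glucose as squares. In salt slc5a3b (4.57) and miox (-4.17) lie far from 0, while the glucose points of the members lie between -0.36 and 0.72.

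The other genes of the pathways came from lists written with earlier results of these data known. Of 79 tested genes other than the members, 9 rose and 2 fell in salt against control, where 2.94% of all tested genes were called higher and 2.41% lower. At an unadjusted p below 0.05 there were 25 of the 79 and 5318 of all 20562 tested genes. Of the 79, 0 were called in glucose against control (5 with an unadjusted p below 0.05; 0 by DESeq2 and 0 by limma voom). The count of 11 in salt was 18 with the suffix as a block, which also moved the count over all genes to 2550, against 1101 without it. Leaving out a salt library gave 17 (without 1m) or 4 (without 2m), leaving out a glucose library gave 6 (1m), 5 (2f) or 5 (2m), and leaving out a control gave 12 (1m), 4 (2f) or 5 (2m).

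Among the carriers the sister copy slc5a3a had 1 count in all libraries together. The proton-coupled inositol carrier gene slc2a13b stood at 5.30 and 4.83 CPM in salt, against 5.08 to 6.20 CPM in glucose and 6.10 to 8.19 CPM in control (log2 -0.52 ± 0.29 over control in salt, adjusted p = 0.29). A further sodium-coupled inositol carrier gene, slc5a11, named after its values were seen, stood at 0.679 and 1.89 CPM in salt, against at most 0.376 CPM in glucose and at most 0.585 CPM in control (1.92 ± 0.77, adjusted p = 0.16).

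Of 9 tested genes listed for inositol synthesis and release from phosphates, 0 were called in salt by edgeR, DESeq2 or limma voom. By edgeR 1 of them, inpp5ka, had an unadjusted p below 0.05. The synthase gene isyna1 was on that list but was not found among the deposited genes, so the 9 leave out that step of synthesis. Of the 9, 0 had a log2 fold change above 0, and the median was -0.41. Over all 20562 tested genes 9777 lay above 0, and the median was -0.04. The second monophosphatase gene impa2 stood at 0.543 and 1.66 CPM in salt, against 1.83, 4.51 and 5.26 CPM in glucose and 1.76, 2.32 and 3.37 CPM in control. Salt lay below the other groups, and the log2 fold change over control was -1.18 ± 0.64 (adjusted p = 0.27). The polyphosphate 1-phosphatase gene INPP1 (-0.05 ± 0.29) and the related phosphatase gene bpnt1 (-1.24 ± 0.72) were not called (adjusted p = 0.93 and 0.31). Downstream, cdipt, whose product joins inositol to phospholipid, was at 13.7 and 14.1 CPM in salt, against 17.6 to 21.3 CPM in glucose and 20.1 to 23.5 CPM in control (-0.61 ± 0.21, adjusted p = 0.10). Of 21 tested genes of phosphatidylinositol synthesis and its kinases 0 were called in salt by edgeR (5 at an unadjusted p below 0.05, median 0.23). Of the 21, DESeq2 called 1, limma voom 0 and the fit with the suffix as a block 1. Over all 20562 tested genes the counts were 1101 (edgeR), 5318 (unadjusted), 2834 (DESeq2), 718 (limma voom) and 2550 (block).

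Beyond miox, 0 of 10 tested genes of inositol and glucuronate breakdown were called in salt by edgeR (2 at an unadjusted p below 0.05, median -0.07). Of the 10, DESeq2 called 2, limma voom 0 and the fit with the suffix as a block 1. Over all 20562 tested genes the counts were 1101 (edgeR), 5318 (unadjusted), 2834 (DESeq2), 718 (limma voom) and 2550 (block). The glucuronate reductase genes akr1a1a (-0.05 ± 0.76) and akr1a1b (-0.30 ± 0.22) and the xylulose reductase gene dcxr (0.04 ± 0.38) were not called (adjusted p = 0.97, 0.42 and 0.96). The xylulokinase gene xylb, the last step of that route and named after its values were seen, stood at 1.63 and 0.453 CPM in salt, against 4.68, 5.39 and 4.2 CPM in glucose and 2.86, 4.21 and 5.76 CPM in control. Salt was again below all other libraries (log2 -2.02 ± 0.55, adjusted p = 0.061).

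Of 11 further tested genes of the polyol pathway and fructose use, DESeq2 called 3 in salt, limma voom 1 and the fit with the suffix as a block 4. Over all 20562 tested genes these fits called 2834, 718 and 2550. By edgeR 1 of the 11 rose (median -0.11), where 2.94% of all tested genes were called higher. It was hk1, for a hexokinase that phosphorylates glucose, at 251.3 and 269.9 CPM in salt, against 83.8 to 132.1 CPM in glucose and 86.9 to 133.2 CPM in control (1.24 ± 0.25, adjusted p = 0.027). The call of hk1 was lost without salt 2m, glucose 2f, glucose 2m, control 2f or control 2m (adjusted p up to 0.18). The fructose kinase gene khk was low in every library (0.981 to 3.37 CPM) and was not called (-0.64 ± 0.53, adjusted p = 0.48).

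Of 13 tested inositol polyphosphate kinase genes 3 rose and 1 fell in salt against control by edgeR. Over all tested genes 2.94% were called higher and 2.41% lower. DESeq2 called 2834, limma voom 718 and the fit with the suffix as a block 2550 of all 20562 tested genes. Of the 13 these fits called 5, 2 and 5. Those that rose by edgeR were itpka (1.56 ± 0.38, adjusted p = 0.045) and itpkca (1.11 ± 0.22, 0.027), for kinases of inositol trisphosphate, and ip6k2b (1.47 ± 0.34, 0.040), for an inositol hexakisphosphate kinase. In salt 1m and 2m itpka stood at 24.7 and 78.1 CPM, against 13.0 to 13.7 CPM in glucose and 16.7 to 17.9 CPM in control. The gene that fell was ppip5k1b, for a kinase of diphosphoinositol phosphates (-1.28 ± 0.30, 0.041). Each of these 4 calls was lost without salt 2m, any 1 glucose library, control 2f or control 2m, and those of itpka and ip6k2b also without control 1m (adjusted p up to 0.36).

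**Figure D4:**
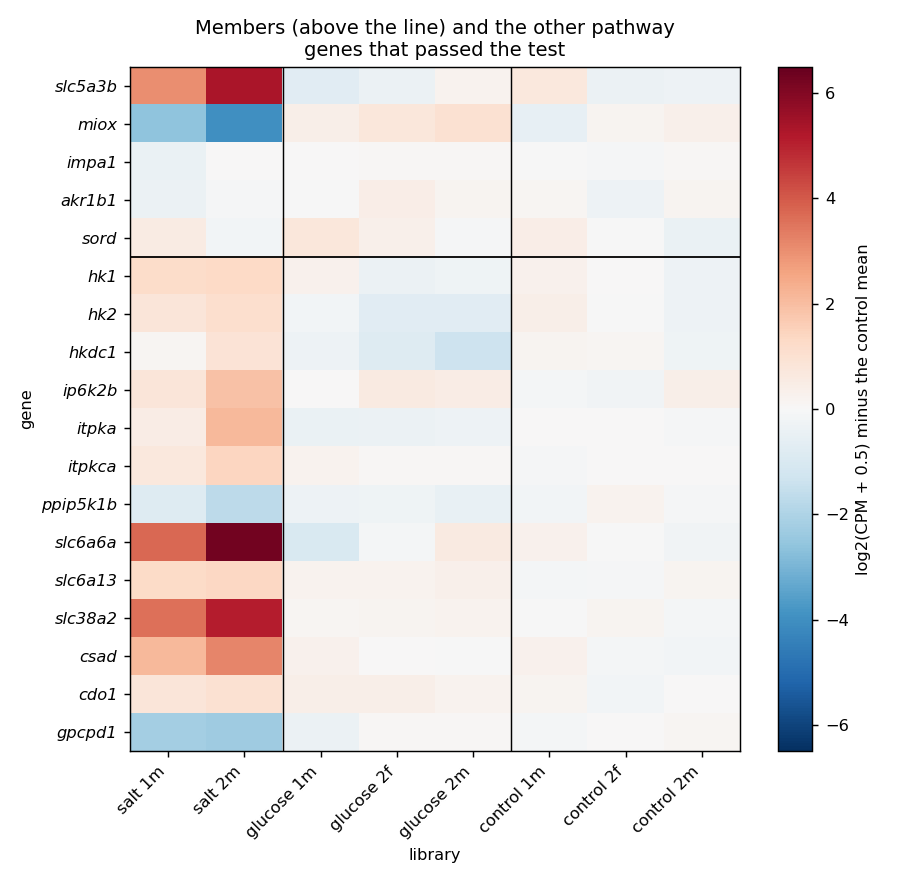
Log2(CPM + 0.5) minus the control mean for the 5 members (above the line) and the 13 other pathway genes that passed the test in salt against control or salt against glucose, in each library. Salt 1m and salt 2m share their direction in the called genes over control, and the difference is larger in salt 2m for each of these 11 genes and for slc5a3b and miox, by little for hk1, slc6a13 and gpcpd1.

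Other organic osmolytes were set beside myo-inositol, and 5 of 13 tested genes rose and 1 fell in salt, where 2.94% of all tested genes were called higher and 2.41% lower; this list, like the others, was written with earlier results of these libraries known. The taurine carrier gene slc6a6a stood at 45.2 and 263.7 CPM in salt, against 1.26 to 4.76 CPM in glucose and 2.44 to 3.71 CPM in control, and the amino acid carrier gene slc38a2 at 552.3 and 1593 CPM in salt, against 49.9 to 53.2 CPM in glucose and 41.5 to 51.8 CPM in control. Like slc5a3b, both were higher in salt 2m than in salt 1m. The gene that fell was gpcpd1, whose product splits the osmolyte glycerophosphocholine. It was at 11.1 and 10.3 CPM in salt, against 41.3, 55.5 and 57.0 CPM in glucose and 48.3, 53.6 and 58.5 CPM in control (log2 -2.32 ± 0.22, adjusted p = 0.0020). Unlike miox, the 2 salt libraries were alike for gpcpd1. The calls of slc6a6a, slc38a2, gpcpd1 and the taurine synthesis gene csad (2.75 ± 0.30) held in each of 8 fits without 1 library (adjusted p up to 0.042).

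The genes most like slc5a3b in pattern, by Pearson's r of log2 CPM over 8 libraries among the 18419 genes that averaged 1 CPM or more, were rnf24 (r = 0.9953), cep350 (0.9934), ddx3 (0.9927), sh3glb2a (0.9923) and slc6a6a (0.9918). Without the 2 salt libraries r was 0.97 for rnf24, 0.94 for sh3glb2a and 0.81 to 0.88 for the other 3, over 6 libraries. The genes most like miox were gpsm2 and pogzb (both 0.9907), hdac10 (0.9897), si:dkey-7i4.5 (0.9895) and nat14 (0.9894), with r of 0.68 to 0.97 without salt. Between the 2 members r was -0.98. The genes were picked over 8 libraries that include those without salt, so the values without salt are not independent of the choice. The libraries of 1 suffix share part of their deviation, and the points share depth and scaling, so all these values describe likeness only. Pearson's r takes no account of size. In salt over control the log2 fold change was 2.66 for rnf24, 5.68 for slc6a6a and 0.86 to 1.18 for the other 3, against 4.57 for slc5a3b. For the genes like miox it ran from -2.02 to -0.99, against -4.17 for miox. By edgeR sh3glb2a, hdac10 and si:dkey-7i4.5 were not called there (adjusted p = 0.058, 0.096 and 0.059).

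None of the 5 members overlapped another gene of the table. Of the nearest tested genes on either side, 10 in all, 0 were called in salt against control by edgeR. Of these 10, 5 had an unadjusted p below 0.05 (edgeR). DESeq2 called 2, limma voom 0 and the fit with the suffix as a block 3. Over all 20562 tested genes the counts were 1101 (edgeR), 5318 (unadjusted), 2834 (DESeq2), 718 (limma voom) and 2550 (block). The gene lmf2a, for a lipase maturation factor, lies 4280 bases from miox on the opposite strand and stood at 3.19 and 0.981 CPM in salt, against 5.94 to 7.21 CPM in glucose and 6.83 to 7.75 CPM in control (log2 -1.77 ± 0.45, adjusted p = 0.053). Next to slc5a3b, the ATP synthase subunit gene atp5o, 8317 bases away on the opposite strand, differed by 0.57 ± 0.25 (adjusted p = 0.19). Beside sord, C7H15orf43 differed by -2.21 ± 0.78 (adjusted p = 0.12). Beside akr1b1, si:dkey-14k9.3 differed by -0.85 ± 0.34 (adjusted p = 0.16) and akr1b1.2 by -2.09 ± 0.56 (adjusted p = 0.059).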

How the data were processed

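The authors deposited raw read counts per gene, with no normalization. Per the submitters' processing notes edgeR 3.22.5, DESeq2, featureCounts 1.5.0-p3, StringTie 1.3.3b and HISAT2 2.0.5 were named, with the build GRCz11. Their order, and how strand and reads with several matches were treated, is not stated in the sources used here. The labels' extract protocol describes an array hybridisation, while the values are sequencing counts. Column names gave the group and a suffix, so libraries were matched to groups only.

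Counts were fitted with edgeR 4.0.16 in R 4.3.3 (filterByExpr, TMM scaling, quasi-likelihood F-test) in 1 model of all 8 libraries, with 5 residual degrees of freedom before moderation and Benjamini-Hochberg adjustment over 20562 genes at 0.05. SE is the log2 fold change divided by the root of F. Likeness used log2 CPM with a prior count of 2. Alternatives were other scalings and filters, DESeq2 1.42.0, limma voom 3.58.1, fits of 2 groups, the suffix as a block, and leaving out libraries. Deviations from the group means correlated at 0.16 to 0.52 within a suffix between groups, for every pair, so the suffix was taken as pairing the libraries; pairs of different suffixes ran from -0.51 to 0.22, and 2 of them exceeded the single 2f pair (0.16). With 2 salt libraries these deviations mirror each other.

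The members and gene lists were chosen with earlier results of these data known. Named beside the members were a set group of inositol and polyol genes whatever their values, up to 4 called genes per list and comparison with the largest change, the 5 genes most like slc5a3b and the 5 most like miox, slc6a6a and slc38a2. Other genes were named after their values were seen. No sequence is printed, and no genome was used here.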

Additional observations from a re-analysis of the deposited data

How the results depend on the processing

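In salt over control 1101 genes were called, against 2834 by DESeq2, 718 by limma voom, 72 with only the 2 groups fitted, 2550 with the suffix as a replicate block, and 352 when control 1m and salt 2m were both left out (an alternative added after seeing the data). Leaving out 1 library gave 50 to 2355. In glucose over control 0 genes were called, against 16 with no count filter, 93 by DESeq2, 36 with the block and 20 without those 2 libraries, and 0 to 0 without 1 library. In salt over glucose 1017 were called, against 2630 by DESeq2, 647 by limma voom and 1857 with the block, and 59 to 2343 without 1 library. Pathway genes other than the members numbered 11 in salt over control, against 18 by DESeq2, 4 with 2 groups, 18 with the block, 5 without the 2 libraries and 4 to 17 without 1 library. In salt over glucose they numbered 10, against 19, 16 with the block, and 3 to 17. The log2 value of miox in salt over control lost its call with limma voom (-5.32) and with 2 groups (-4.18), and ran from -9.94 to -3.22 without 1 library. That of slc5a3b ran from 3.02 to 5.32. In salt over glucose slc5a3b ran from 3.39 to 5.69 and miox from -10.65 to -3.93. For miox the ends at -9.94 and -10.65 belong to the fit without salt 1m. That fit leaves salt at 0 counts of miox and is no measure of size. The cause of these shifts was not tested. Scaling by library totals alone moved the median of all genes to -0.15 in salt over glucose, against -0.04. The count of 2 salt libraries limits the precision of every value in salt.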

Other observations

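Among the hexokinase genes, hk2 and hkdc1 passed the test in salt over glucose but not in salt over control, and the comparisons share the salt libraries. The difference between these comparisons is that of glucose and control, where neither gene was called by edgeR. There the log2 fold change of glucose over control was -0.57 ± 0.24 for hk2 and -0.83 ± 0.31 for hkdc1 (unadjusted p = 0.04 and 0.0246, adjusted p = 0.76 for both). In salt the log2 fold change of hk2 was 1.49 ± 0.26 over glucose (adjusted p = 0.019, edgeR). That of hkdc1 was 1.40 ± 0.34 (adjusted p = 0.048). Over control these were 0.93 ± 0.26 for hk2 (adjusted p = 0.066) and 0.57 ± 0.34 for hkdc1 (adjusted p = 0.32). In salt over glucose 4.95% of all tested genes were called. The call of hk2 was lost without salt 2m, glucose 2f or glucose 2m (adjusted p up to 0.15). That of hkdc1 held in 2 of 8 fits without 1 library, without salt 1m and without control 1m (adjusted p up to 0.31 in the others).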
